A study of Mus musculus with 12 samples.

Results

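Livers of healthy mice and of mice with steatohepatitis after streptozotocin and a high-fat diet were profiled by RNA-seq. The genes described here encode the subunits of oxidative phosphorylation, the 5 membrane complexes that make ATP in mitochondria. The members were taken by symbol from the GENCODE M21 mouse annotation, as protein-coding genes of the series Nduf, Sdh, Uqcr, Cox4 to Cox8 and Atp5 plus the 13 protein-coding genes with the prefix mt-. The rule gave 98 genes and 97 of them, 84 nuclear and 13 mitochondrial, had an identifier among the 47729 genes of the count files. A second identifier of Atp5o was not analysed here. Complexes were assigned by symbol, so Ndufa4, now usually placed in complex IV, stays under complex I.

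All 12 animals were male C57BL/6 mice and each group had 4. Healthy mice (Naive_vehicle, given as WT in the labels) received neither streptozotocin nor the high-fat diet and were given vehicle. STAM mice had a single streptozotocin injection at day 2 of age, which damages the insulin-producing islets, and ate a high-fat diet from week 4. From week 6 to week 9 they were dosed once a day by mouth with vehicle (STAM-vehicle; STAM_vehicle in the labels) or with 10 mg/kg I-BET151 (STAM-I-BET151; STAM_treated), an inhibitor of the bromodomain proteins that read acetylated histones. The model is a chemical and dietary one, so STAM-vehicle differs from healthy by injection, diabetes and diet together, and these cannot be told apart.

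In oxidative phosphorylation, electrons from NADH enter at complex I and those from succinate at complex II, pass through complex III to complex IV and there reduce oxygen. Protons pumped on the way drive the ATP synthase, complex V. Complex II is encoded wholly in the nucleus, while the other complexes combine nuclear subunits with a few made inside the mitochondrion from its own circular genome, which is transcribed as long polycistronic RNAs by a polymerase of its own. Hepatocytes are rich in mitochondria and use them to burn fatty acids.

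Libraries held 34711229 to 53365596 counts. Levels are given as CPM, counts per 1000000 counted reads after scaling with edgeR's TMM factors, which correct for differences in library composition. These factors were 0.770 to 0.950 in healthy mice, 1.01 to 1.11 in STAM-vehicle mice and 0.944 to 1.04 in 3 STAM-I-BET151 mice. The factor of STAM-I-BET151 mouse 3 was 1.61, far from those of its group. The same mouse had the lowest summed hepatocyte markers (Alb, Apoa1, Apoa2, Ttr, Serpina1a, Cps1 and Ass1) at 21400 CPM, against 57600 to 128000 CPM in the 11 other mice. Its summed nucleus-retained transcripts, such as Neat1 and Malat1, reached 4870 CPM, against 834 to 1240 CPM in healthy mice, 1360 to 2170 CPM in STAM-vehicle mice and 1170 to 1580 CPM in the other STAM-I-BET151 mice. The hepatocyte identity of the tissue was plain in each library, since those 7 markers summed to at least 21400 CPM while the fat markers Ucp1, Adipoq and Plin1 together stayed at or under 0.265 CPM. In a piece of whole liver, fewer cells of a type and less RNA per cell cannot be told apart.

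Among the nuclear genes, levels were compared per kilobase of the principal transcript. The catalytic core of ATP synthase was the most abundant part: Atp5b (beta subunit) stood at 666 ± 49.0 CPM per kb in healthy mice (SD, n = 4), followed by Atp5a1 (alpha subunit) at 471 ± 28.9 and Atp5g3 (a gene for the membrane ring) at 448 ± 43.0. Atp5a1 and Atp5g3 differed by less than their spread. The other nuclear genes lay at 305 CPM per kb or lower. The median gene of complex I, the largest complex, was at 66.6 CPM per kb, below the medians of 155 for complex II, 151 for complex III, 161 for complex IV and 157 for complex V. Of the 13 mitochondrial genes, 9 were far above these, from mt-Nd3 (a complex I subunit) at 2782 ± 544 CPM per kb upwards, with mt-Co1 (catalytic subunit of complex IV) at 14157 ± 2640 CPM per kb and mt-Cytb (cytochrome b of complex III) at 10816 ± 2970. The other 4, mt-Atp6, mt-Co2, mt-Co3 and mt-Atp8, were listed at 5.78, 4.72, 4.37 and 2.76 CPM per kb, and for the first 3 nearly all counts were on a nuclear copy described further on.

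Isoforms of other tissues were rare in these livers. Cox4i1, the general form of subunit 4, stood at 300 ± 22.7 CPM per kb in healthy mice, whereas Cox4i2, known from lung, was at 0.0985. Cox6a1 stood at 300 ± 26.3 and its heart and muscle counterpart Cox6a2 at 0.0184. Cox8a was at 286 ± 5.26 and the muscle form Cox8b at 0.0643. The testis-type Cox6b2 was at 2.47 against 255 ± 15.8 for Cox6b1, Cox7a1 (muscle form) at 1.59 against 118 for Cox7a2, and Ndufa4l2 at 1.24 against 305 ± 17.1 for Ndufa4. Cox7b2 and Cox8c had no count in any mouse, which allows up to 0.0903 CPM in the library with the highest limit (3 counts, counting error only). Cox7a2l, the Cox7a2-like gene, was at 74.5 CPM per kb. Of the 4 muscle markers, Ckm, Myh1 and Mb had mean levels at or under 0.0269 CPM in each group, while Acta1 was at 0 in all healthy mice, at 0.0212 to 0.481 CPM in STAM-vehicle mice and at 0.233 to 0.753 CPM in STAM-I-BET151 mice. Its part in the isoform values was not tested.

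For 79 of the 84 nuclear genes and all 13 mitochondrial genes the counts were high enough to test. The others, Cox4i2, Cox6a2, Cox7b2, Cox8b and Cox8c, were near or at 0 in each group.

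The comparison of STAM-vehicle with healthy mice asks how the subunit genes stand at the onset of steatohepatitis. Of the 79 nuclear genes, 77 were lower in STAM-vehicle mice after TMM scaling (42 when scaled to total counts alone), with a median log2 fold change of -0.288 against 0.00888 for all 16823 genes tested. None passed an adjusted p of 0.05 in the fit of all 12 mice (quasi-likelihood test of edgeR, p-values adjusted by Benjamini and Hochberg), where 7.07% of all genes were called. In the same test 13 had an unadjusted p under 0.05, all of them lower. The share of all genes at that unadjusted level is not given here, so this and later counts at it cannot be read as an excess. Yet on TMM-scaled CPM each STAM-vehicle mouse was below each healthy mouse in 50 of the 79, a separation seen in 12.2% of all genes tested. In none was each STAM-vehicle mouse above. This and all later statements on overlap hold for the TMM scale, and separation was not counted on total counts alone. The 12.2% is also the share to set beside the counts by complex below. Summed hepatocyte markers (111000 to 128000 CPM in healthy, 57600 to 76700 CPM in STAM-vehicle mice) and the nucleus-retained transcripts, which were higher in each STAM-vehicle mouse, also separated these groups, and their part in the subunit values was not tested.

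**Figure D1:**
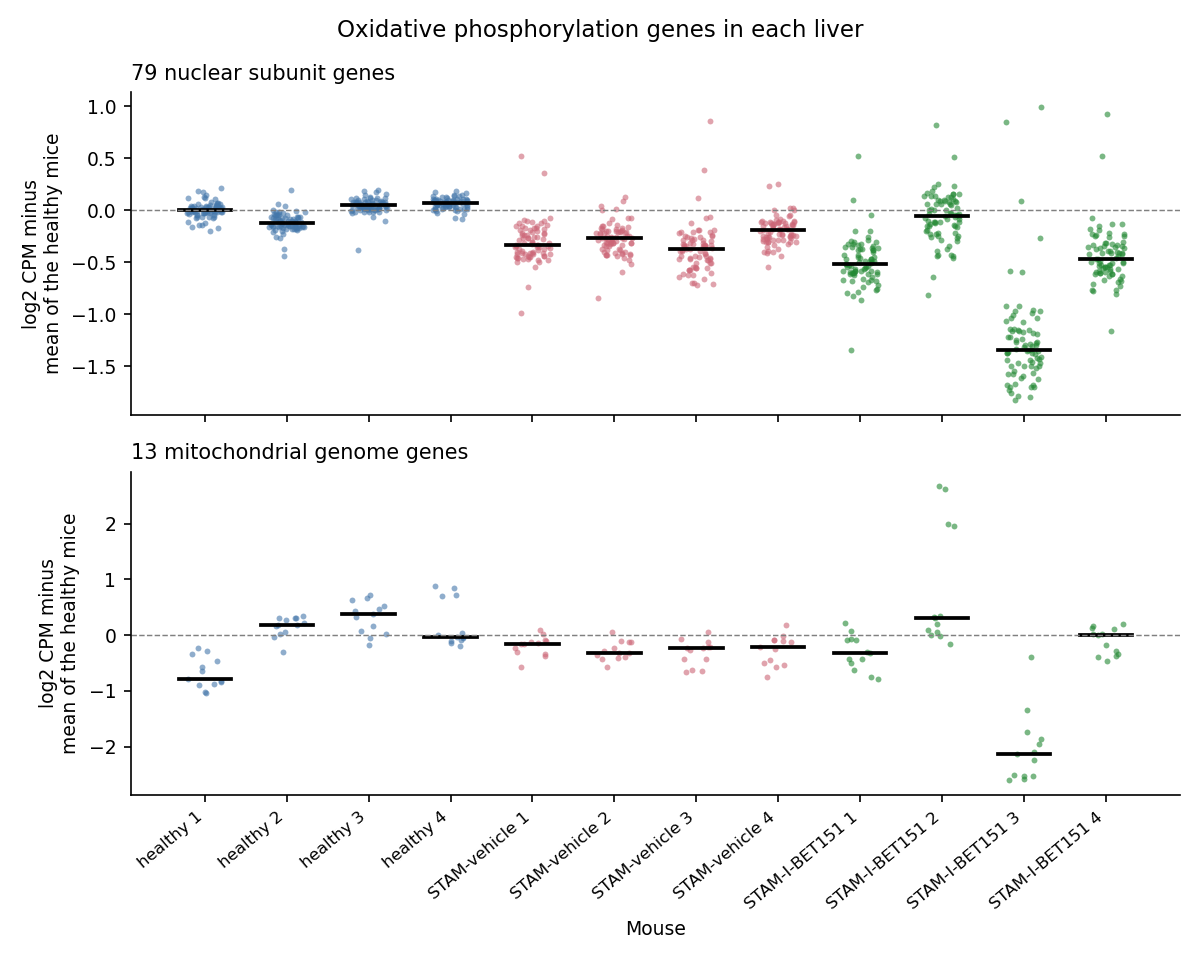
Each point is 1 gene in 1 mouse, as log2 CPM minus the mean of the 4 healthy mice (vertical axes), for the 79 nuclear subunit genes (upper panel) and the 13 mitochondrial genome genes (lower panel); black lines mark each mouse's median. Nuclear medians run from -0.374 to -0.189 in STAM-vehicle mice, and STAM-I-BET151 mouse 3 lies at -1.34 and -2.14.

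The number of calls differed between fits, and the cause was not tested. When STAM-vehicle and healthy mice were fitted alone, 50 nuclear genes were called, all lower, against 11.1% of all genes called lower. Leaving out STAM-I-BET151 mouse 3 gave 32, against 10.3%, and these 32 were all among the 50. With limma-voom sample weights 42 were called lower, against 14.8%, and with DESeq2 on the 11 other mice 39, against 10.9%. In all these fits the fold changes were near those of the 12 mice and the standard errors were mostly smaller.

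The size of the difference depended on the scale. Nuclear subunit genes took 0.863% to 1.01% of the raw counts in healthy mice and 0.907% to 0.938% in STAM-vehicle mice, with the second range inside the first. Scaled to total counts alone, 42 of the 79 were lower. The median log2 fold change of the 79 was then -0.0197, while that of all genes was 0.280. Relative to all genes the median was -0.297 with TMM factors and -0.300 with total counts. A change of scale moves all genes of a mouse by the same factor, so these values had to be close. Within the 1 sequencing lane that held both groups, STAM-vehicle mouse 4 was lower than healthy mouse 1 for 73 of 79 genes, with a median log2 difference of -0.190. With lane as a term in the fit the median was 0.0762, at 0.0323 for all genes, so the direction turned under that fit. Healthy mice 2 and 3 and STAM-vehicle mouse 2 shared no lane with another group and did not inform it. Beyond the 1 lane with both groups, it rests on lanes shared with STAM-I-BET151 mice, so it does not settle the direction.

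Complex II held the gene with the most negative fold change. Sdhd, one of the membrane anchors of succinate dehydrogenase, was at 206, 197, 199 and 209 CPM in healthy mice and at 122, 135, 129 and 139 CPM in STAM-vehicle mice. The groups did not overlap, and the log2 fold change was -0.63 ± 0.22 (SE, adjusted p = 0.106 by edgeR), or -0.65 ± 0.08 with an adjusted p of 0.00076 in the edgeR fit of the 2 groups alone. Sdhb, the iron-sulfur subunit of the same enzyme, was at 169, 145, 171 and 177 CPM in healthy and 149, 157, 131 and 160 CPM in STAM-vehicle mice, which overlap. Sdha, the flavoprotein that oxidizes succinate, overlapped too, at a log2 fold change of -0.28 ± 0.25. The promoter of Sdhd, shown because this gene had the most negative fold change, lies at chr9:50603800-50604099 on the minus strand (RefSeq, GRCm38.p6), runs from 250 bases before to 50 after the start, and carries matches to 3 of the motifs searched, in capitals.
Sdhd promoter: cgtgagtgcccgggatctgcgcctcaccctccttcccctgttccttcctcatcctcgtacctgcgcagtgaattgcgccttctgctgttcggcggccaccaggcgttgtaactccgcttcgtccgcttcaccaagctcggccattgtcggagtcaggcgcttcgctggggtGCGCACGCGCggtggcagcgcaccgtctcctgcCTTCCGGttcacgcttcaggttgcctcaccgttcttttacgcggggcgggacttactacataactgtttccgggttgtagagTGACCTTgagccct

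Of the 37 complex I genes, 36 were lower in STAM-vehicle mice after TMM scaling, with a median of -0.26, and 23 did not overlap. With total counts alone Ndufa13 and Ndufv1 were at 0.227 and 0.0827. Ndufs7, an iron-sulfur subunit of the arm that hands electrons to ubiquinone, was at 70.5, 59.8, 71.5 and 70.3 CPM in healthy mice and at 48.2, 50.2, 41.6 and 50.2 CPM in STAM-vehicle mice. All 4 STAM-vehicle values were below the lowest healthy one (log2 fold change -0.52 ± 0.17, adjusted p = 0.0877 by edgeR). Ndufb5, an accessory subunit, was at -0.46 ± 0.15 (adjusted p = 0.0897), also without overlap. Ndufs1, another core subunit with iron-sulfur clusters, was at -0.40 ± 0.17 without overlap. Ndufv1, the core subunit that binds NADH, was at -0.19 ± 0.19 and overlapped between the groups. Ndufa4l2 was the 1 gene of the complex with a higher mean in STAM-vehicle mice, at 0.26 ± 0.27, and its groups overlapped. The Ndufs7 promoter, chr10:80249199-80249498 on the plus strand, has 1 match, in capitals.
Ndufs7 promoter: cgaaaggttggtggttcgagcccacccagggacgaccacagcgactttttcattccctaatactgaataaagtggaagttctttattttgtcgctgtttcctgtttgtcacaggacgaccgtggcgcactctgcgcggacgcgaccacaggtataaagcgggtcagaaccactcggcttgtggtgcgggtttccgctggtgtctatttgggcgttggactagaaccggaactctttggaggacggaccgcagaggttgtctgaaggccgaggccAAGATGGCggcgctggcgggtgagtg

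In complex III all 8 genes were lower after TMM scaling, and 7 did not overlap. With total counts alone Uqcrc1 was at 0.0835. Uqcrb, a small subunit next to cytochrome b, was at 99.5, 108, 119 and 113 CPM in healthy mice and at 79.7, 82.6, 74.4 and 82.7 CPM in STAM-vehicle mice. That is a log2 fold change of -0.46 ± 0.21 (adjusted p = 0.209 by edgeR). Uqcrfs1, the Rieske iron-sulfur protein, was at -0.37 ± 0.26 without overlap. Uqcrc1, a core protein, was the exception that overlapped, at -0.19 ± 0.20.

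Complex IV had the smallest share of separated genes, 4 of 13, which were Cox6c, Cox7b, Cox7c and Cox8a. Cox4i1 was at 235, 205, 233 and 246 CPM in healthy mice and at 185, 199, 167 and 215 CPM in STAM-vehicle mice, so that only STAM-vehicle mouse 4 reached into the healthy range (-0.26 ± 0.23). Cox5a, which surrounds the catalytic core with Cox4i1, was at -0.24 ± 0.25. The extremes were both rare isoforms: Cox7a1 at -0.51 ± 0.34, with values of 0.465 to 0.723 CPM in healthy and 0.288 to 0.742 CPM in STAM-vehicle mice, and Cox6b2 at 0.41 ± 0.23. Both overlapped. The Cox7a1 promoter, chr7:30183921-30184220 on the plus strand, is set beside them because its gene followed Sdhd and Ndufs7 in the order of fold changes, and it holds none of the motif letters.
Cox7a1 promoter: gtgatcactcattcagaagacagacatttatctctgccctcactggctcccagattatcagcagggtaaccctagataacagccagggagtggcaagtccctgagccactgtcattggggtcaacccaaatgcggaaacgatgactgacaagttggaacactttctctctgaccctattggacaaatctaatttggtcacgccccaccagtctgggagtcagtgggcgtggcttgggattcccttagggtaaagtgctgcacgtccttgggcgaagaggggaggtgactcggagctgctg

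All 17 complex V genes were lower in STAM-vehicle mice after TMM scaling, with a median of -0.35, and 14 did not overlap. With total counts alone Atp5b was at 0.0733. Atp5o, part of the stalk that keeps the catalytic head from turning, was at 146, 144, 147 and 159 CPM in healthy mice and at 102, 104, 90.2 and 122 CPM in STAM-vehicle mice. Its log2 fold change was -0.51 ± 0.24 (adjusted p = 0.224 by edgeR). Atp5a1 stood at 1139, 1076, 1229 and 1216 CPM against 922, 935, 821 and 980 CPM, which do not overlap (-0.35 ± 0.25). Atp5b stood at 1263, 1150, 1358 and 1337 CPM against 1134, 1101, 1038 and 1172 CPM, where STAM-vehicle mouse 4 was above healthy mouse 2 (-0.20 ± 0.25). Atp5e, the small epsilon subunit of the rotor, had the lowest adjusted p of the nuclear genes, 0.0874 by edgeR, at -0.44 ± 0.15.

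**Figure D2:**
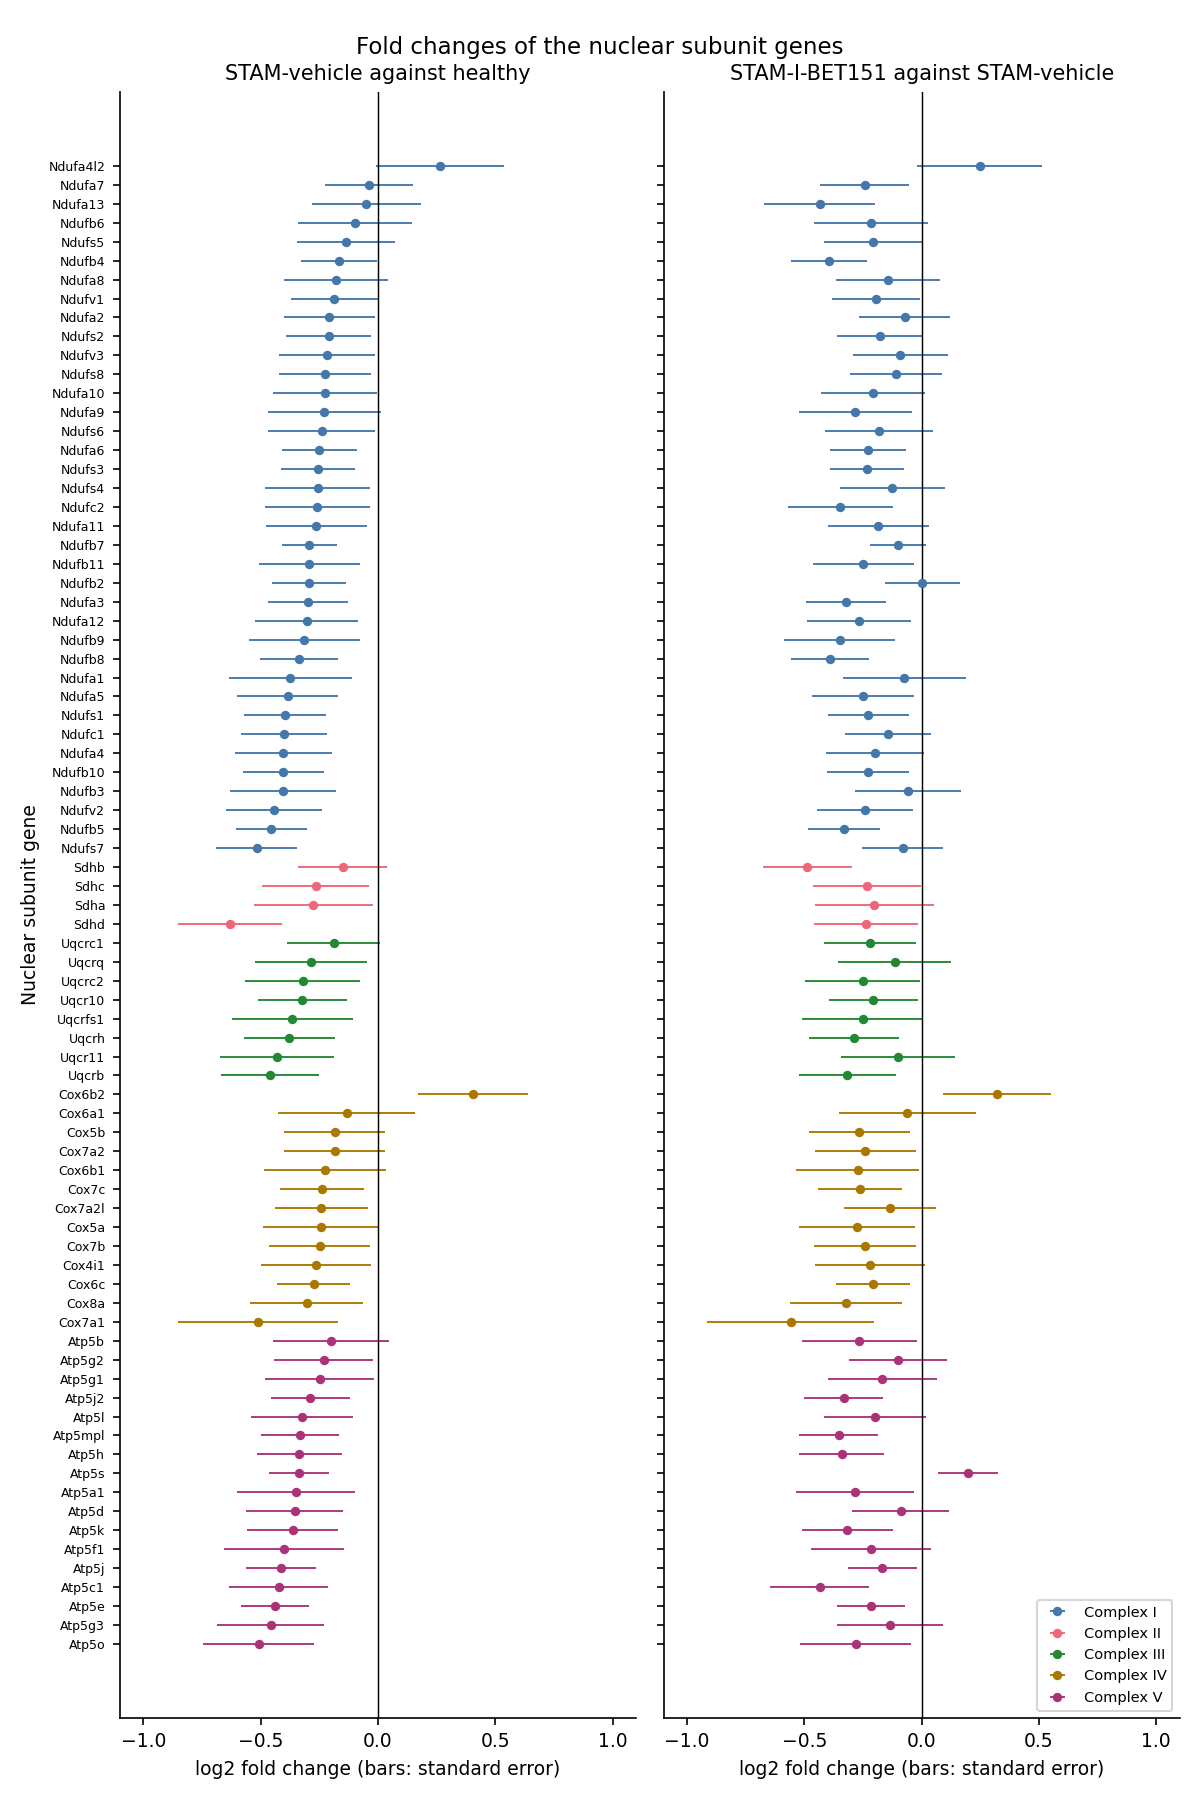
Log2 fold change (horizontal axes) with its standard error for each of the 79 tested nuclear subunit genes (rows, coloured by complex), in STAM-vehicle against healthy mice (left) and STAM-I-BET151 against STAM-vehicle mice (right). On the left 77 points lie below 0, the exceptions being Cox6b2 and Ndufa4l2 (42 with total counts alone), and on the right 75 do.

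Other groups of genes were set beside the subunits. In STAM-vehicle against healthy mice the median was -0.231 over 77 genes of the mitochondrial ribosome, -0.225 over 78 of the cytosolic ribosome, -0.244 over 13 of the citric acid cycle, -0.181 over 44 assembly factors and -0.144 over 21 genes of mitochondrial DNA expression, and no gene of these lists was called in the edgeR fit of 12 mice, where 20, 1, 0, 8 and 6 had an unadjusted p under 0.05. Each STAM-vehicle mouse was below each healthy mouse in 40 of the 77, 43 of the 78, 8 of the 13, 17 of the 44 and 7 of the 21. The share over all genes tested was 12.2%. Lower values without overlap were therefore shared by genes outside oxidative phosphorylation, the cytosolic ribosome included. Of the 7 hepatocyte markers all were lower (median -0.53, none called, 1 at an unadjusted p under 0.05), while 3 of 5 macrophage markers, Clec4f, Cd68 and Adgre1, rose and the other 2 had higher means. The part of these cell types in the subunit values was not tested.

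Carriers and subunits that the symbol rule leaves out moved in both directions. Ucp2, an inner-membrane carrier of the uncoupling protein family, rose from 39.1 ± 7.31 to 114 ± 26.3 CPM (SD, n = 4), a log2 fold change of 1.55 ± 0.21 (adjusted p = 0.000873 by edgeR). Slc25a4, the heart and muscle form of the ADP/ATP carrier, rose by 0.95 ± 0.21 (adjusted p = 0.0147) and Atpif1, an inhibitor of ATP synthase, by 0.67 ± 0.18 (adjusted p = 0.0417). Usmg5, a small subunit of ATP synthase, fell by 0.43 on the log2 scale, from 55.0 ± 3.60 to 40.7 ± 2.05 CPM (adjusted p = 0.0455). The remaining 9 of the 13 were not called, among them Slc25a5, the main ADP/ATP carrier of liver by its level here, at 430 ± 26.1 and 397 ± 30.5 CPM.

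The comparison of STAM-I-BET151 with STAM-vehicle mice asks whether the inhibitor moved these genes. Of the 79 nuclear genes, 75 had a lower mean with I-BET151, at a median log2 fold change of -0.228 against 0.0239 for all genes. None was called at an adjusted p of 0.1 (edgeR, where 0.351% of all genes were called), 4 had an unadjusted p under 0.05, and 1, Ndufb4, had each STAM-I-BET151 mouse below each STAM-vehicle mouse, against 2.63% of all genes. With limma-voom sample weights 3 genes, Sdhb, Ndufb8 and Atp5c1, were called lower, against 4.07% of all genes.

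The STAM-I-BET151 mice differed widely among themselves. Their per-mouse medians over the nuclear genes, as log2 difference from the healthy mean, were -0.518, -0.0524, -1.34 and -0.464, so that 3 of the 4 were below all STAM-vehicle mice (-0.374 to -0.189) and mouse 2 was above them. The same 3 mice were below, and mouse 2 above, all STAM-vehicle mice in the share of raw counts, which was 0.783%, 0.986%, 0.662% and 0.728% against 0.907% to 0.938%. STAM-I-BET151 mouse 3 had the lowest value of all 12 mice for 74 of the 79 nuclear genes (93.7%), against 30.1% of all genes tested. The 5 exceptions were Atp5s, Cox6b2, Cox7a1, Ndufa4l2 and Ndufb2. STAM-I-BET151 mouse 2 was the highest of its group for 73 of the 79 (92.4%, against 25.6% of all genes). The group's median thus depended on both mice. Without mouse 3 the median log2 fold change was -0.0260, at 0.00416 for all genes, 47 of 79 were lower and none was called. Without mouse 2 it was -0.423. Mouse 3 also had the lowest hepatocyte markers and the highest nucleus-retained transcripts, and their part in its values was not tested.

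**Figure D3:**
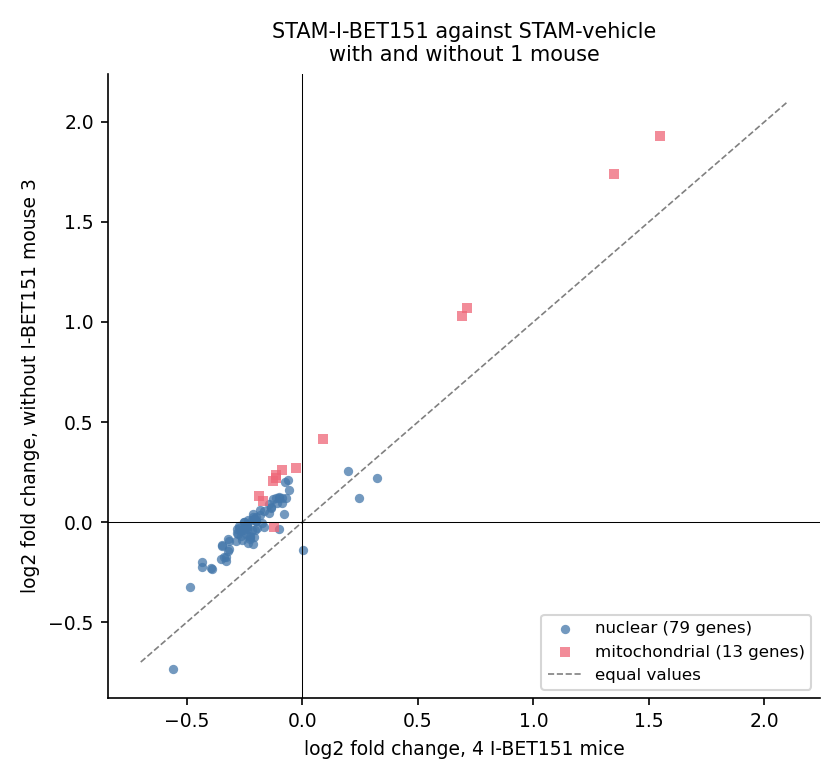
Log2 fold change of STAM-I-BET151 against STAM-vehicle for the 79 nuclear (circles) and 13 mitochondrial (squares) genes, with all 4 STAM-I-BET151 mice (horizontal axis) and without mouse 3 (vertical axis); the dashed line marks equal values. Most points lie above the line, and the nuclear median moves from -0.228 to -0.0260.

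Within lanes, STAM-I-BET151 was lower than STAM-vehicle in each of the 3 pairs that shared one. The median log2 difference over the 79 genes was -0.199 for mouse 1 against STAM-vehicle mouse 1, -0.261 for mouse 4 against STAM-vehicle mouse 4 and -0.994 for mouse 3 against STAM-vehicle mouse 3. Mouse 2, the highest of its group, shared no lane with a STAM-vehicle mouse.

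Sdhb had the most negative fold change of complex II, at 97.6, 149, 69.9 and 109 CPM in STAM-I-BET151 mice against 149, 157, 131 and 160 CPM in STAM-vehicle mice. Mouse 2 alone reached into the STAM-vehicle range. Its log2 fold change was -0.49 ± 0.19 (adjusted p = 0.477 by edgeR) and -0.32 ± 0.14 without mouse 3 (adjusted p = 0.252). Ndufb4, an accessory subunit of complex I chosen after its values were seen, was at 27.7, 27.5, 15.9 and 25.4 CPM against 28.1, 36.6, 29.1 and 33.0 CPM, so that the groups were apart by a narrow margin (-0.40 ± 0.16, adjusted p = 0.494 by edgeR). Ndufa13, another accessory subunit, was at 56.5, 87.3, 29.0 and 61.7 CPM against 76.5, 81.9, 75.2 and 83.2 CPM, with mouse 2 above the whole STAM-vehicle group (-0.44 ± 0.23).

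In the ATP synthase, Atp5c1, the central shaft, had the most negative value, at 150, 185, 77.3 and 144 CPM in STAM-I-BET151 against 178, 202, 166 and 206 CPM in STAM-vehicle mice (-0.43 ± 0.21, adjusted p = 0.600 by edgeR). Atp5s, a coupling factor, was the 1 complex V gene with a higher mean, at 7.98, 7.41, 6.79 and 7.79 against 6.75, 6.32, 6.81 and 6.24 CPM (0.20 ± 0.13). In complex III the range ran from Uqcrb at -0.32 ± 0.21 to Uqcr11 at -0.10 ± 0.24. In complex IV it ran from Cox7a1 at -0.56 ± 0.35 to Cox6b2 at 0.32 ± 0.23, both at levels of a few CPM or less, while Cox4i1 and Cox5a were at -0.22 ± 0.23 and -0.27 ± 0.25. The other core genes lay between -0.20 and -0.28: Ndufv1 at -0.20, Ndufs1 at -0.23, Sdha at -0.20, Uqcrc1 at -0.22, Uqcrfs1 at -0.25, Atp5a1 at -0.28 and Atp5b at -0.27.

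Ppargc1a, the coactivator that drives mitochondrial biogenesis with the factors NRF1, GABP and ERR, fell with I-BET151. Its level was 40.1, 19.6, 23.1 and 23.9 CPM in STAM-vehicle mice and 7.33, 10.3, 7.38 and 12.5 CPM in STAM-I-BET151 mice, with no overlap. The log2 fold change was -1.51 ± 0.27 (adjusted p = 0.0485 by edgeR), and mouse 3 was not apart from the others. It was -1.40 ± 0.29 without mouse 3 (adjusted p = 0.0445), and the gene was called in 18 of 24 other settings, at adjusted p from 8.2e-05 to 0.184 over all 24. It was not called without STAM-vehicle mouse 4 (adjusted p = 0.132 by edgeR), without STAM-I-BET151 mouse 1 (0.165), with the 2 groups alone (0.137), with total counts alone (0.139), with the replicate block (0.173) or with lane (0.184). None of the other 11 regulators of biogenesis was called, Esrrg and Ppargc1b having log2 fold changes of -0.55 ± 0.28 and -0.39 ± 0.22, Esrra 0.07 ± 0.19 and Nrf1 0.27 ± 0.13. In STAM-vehicle against healthy mice none of the 12 was called by edgeR and 4 had an unadjusted p under 0.05.

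With I-BET151 the median was -0.0418 over the mitochondrial ribosome, 0.0521 over the cytosolic ribosome, -0.158 over the citric acid cycle, -0.0657 over assembly factors, 0.0796 over mitochondrial DNA expression and -0.136 over the carriers, with no gene called by edgeR and 0, 0, 1, 1, 1 and 2 at an unadjusted p under 0.05.

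The 13 mitochondrial genes had to be read beside nuclear copies. A stretch of chromosome 1 (chr1:24611535-24616197, minus strand, GRCm38) holds annotated copies of 7 of them. Of the 101-base windows of the gene, 99.5% occur unchanged in the copy for mt-Co2 and mt-Atp6 and 99.9% for mt-Co3, and here nearly all counts were on the copy. mt-Co2, the copper-binding subunit of complex IV, had 33 to 611 counts and its copy Gm28661 116362 to 455112. For mt-Atp6, the proton channel of ATP synthase, the counts were 43 to 755 against 173508 to 630074 on Gm10925, and for mt-Co3 41 to 424 against 175587 to 413440 on Gm28437. The first 60 bases of mt-Co2 and of its copy are shown as the case where the letters cannot tell the gene from the copy.
mt-Co2: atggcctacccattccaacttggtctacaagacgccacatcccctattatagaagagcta
Gm28661: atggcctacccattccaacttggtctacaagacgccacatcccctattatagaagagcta
For mt-Nd3, where 97.6% of the windows occur unchanged in the copy, the split was the other way round. mt-Nd3 had 28925 to 52263 counts and Gm28438 2272 to 4312. Their only difference over 345 aligned bases is T3C, counted from the first base of mt-Nd3, and is in capitals in the first 30 bases of each.
mt-Nd3: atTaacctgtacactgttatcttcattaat
Gm28438: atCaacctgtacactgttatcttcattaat
mt-Nd4l and mt-Nd4 match their copies at each aligned base, with 98.5% and 60.7% of their windows in the copy. They kept 13406 to 76998 and 88146 to 463981 counts, against at most 179 on Gm10222 and 627 on Gm28439. mt-Co1, whose copy Gm29216 covers only part of the gene and differs by A1066T, kept 63.7% to 68.3% of the counts on both. The cause of the splits was not tested. Chromosome 2 also holds partly matching copies, which share 5.33% of the windows of mt-Co1, 14.7% of mt-Co2 and 3.09% of mt-Nd2. They held 9739 to 24559 (Gm13340), 301 to 1730 (Gm13341) and 2539 to 9361 counts (Gm13339). All sums and shares with copies use the chromosome 1 copies only.

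**Figure D4:**
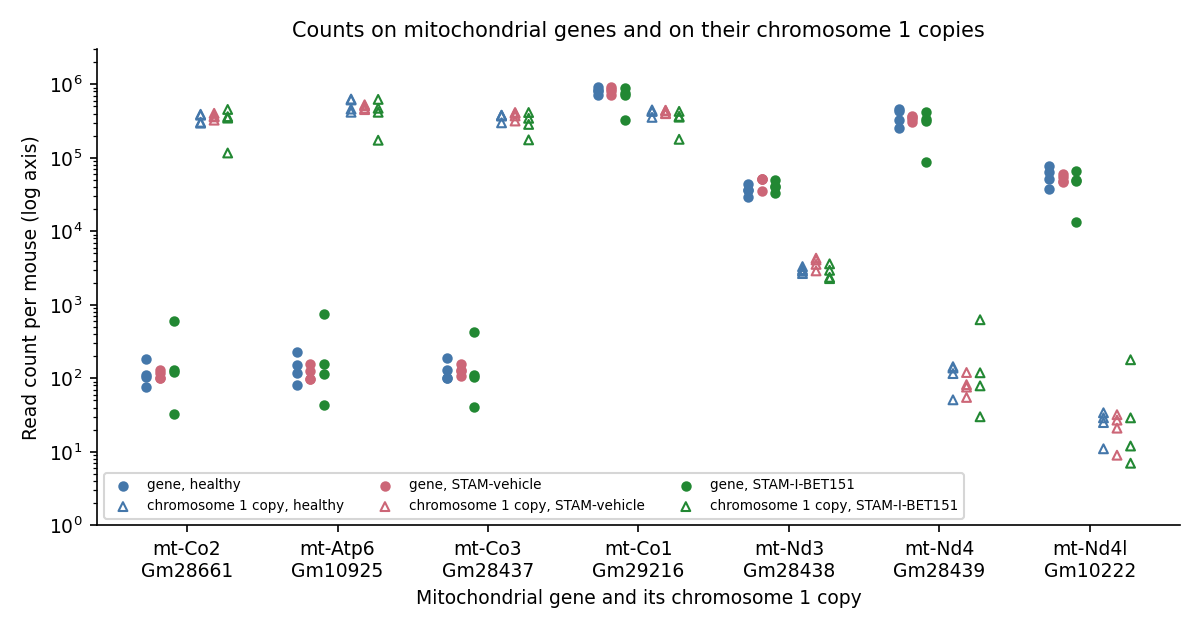
Read counts (log axis) on 7 mitochondrial genes (filled circles) and on their chromosome 1 copies (open triangles), 1 symbol per mouse, coloured by group. For mt-Co2, mt-Atp6 and mt-Co3 the gene holds at most 755 counts and the copy at least 116362, and for mt-Nd3, mt-Nd4 and mt-Nd4l the gene holds more than the copy.

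The mitochondrial genes took 4.46% to 7.24% of counts in healthy mice, 5.71% to 6.34% in STAM-vehicle mice and 2.63% to 6.96% in STAM-I-BET151 mice. With the copies added these became 7.55% to 11.4% and 9.30% to 10.1% in healthy and STAM-vehicle mice. On either measure the groups overlapped and STAM-I-BET151 mouse 3 was the lowest of all mice, at 4.49% with the copies. The ratio of mitochondrial counts, copies included, to nuclear subunit counts was 7.45 to 13.1 in healthy mice, 10.0 to 11.1 in STAM-vehicle mice and 6.78 to 12.6 in STAM-I-BET151 mice.

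In STAM-vehicle against healthy mice, 12 of the 13 genes had a lower mean (median log2 fold change -0.344), none was called by edgeR, none had an unadjusted p under 0.05, and in none were the groups apart. Healthy mice varied among themselves, with healthy mouse 1 the lowest of its group for most of them. mt-Cytb had the most negative fold change of the well-counted genes, at 8088, 13439, 16204 and 11761 CPM in healthy mice and 9247, 8903, 7552 and 8534 CPM in STAM-vehicle mice (-0.53 ± 0.42, adjusted p = 0.493 by edgeR). It was the 1 mitochondrial gene called with limma-voom sample weights (adjusted p = 0.0283) and with DESeq2 on the 11 other mice (adjusted p = 0.0165). mt-Nd4l, mt-Nd4 and mt-Co1 were at -0.50 ± 0.43, -0.47 ± 0.45 and -0.34 ± 0.39. The other complex I genes lay closer to 0, with mt-Nd6 at -0.24 ± 0.46, mt-Nd5 at -0.23 ± 0.49, mt-Nd2 at -0.21 ± 0.43, mt-Nd1 at -0.15 ± 0.37 and mt-Nd3 at 0.02 ± 0.19. In the shared lane, STAM-vehicle mouse 4 was above healthy mouse 1 by a median of 0.392. With lane as a term in the fit, limited as described above, the median over the 13 was 0.902, so the direction turned. Summed with its copy, mt-Atp6 was at -0.48 ± 0.40, mt-Co2 at -0.27 ± 0.40 and mt-Co3 at -0.26 ± 0.32.

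In STAM-I-BET151 against STAM-vehicle mice none of the 13 genes was called by edgeR or had an unadjusted p under 0.05. Their values are given here by how they were counted. The 9 genes with over 1000 counts had a median of -0.116, from mt-Cytb at -0.19 ± 0.42 to mt-Nd2 at 0.09 ± 0.43. mt-Cytb was at 8516, 10754, 2087 and 8654 CPM and mt-Co1 at 16151, 21432, 5916 and 17707 CPM in STAM-I-BET151 mice, against 13747 to 19328 CPM for mt-Co1 in STAM-vehicle mice. Mouse 3 was the lowest of all 12 mice for each of the 13 genes, and without it the median over the 13 was 0.261 and mt-Nd3 was the 1 gene with a lower mean. Within lanes the median over the 13 was -0.127 for mouse 1, 0.173 for mouse 4 and -1.87 for mouse 3. The 4 genes left with under 1000 counts had positive values, mt-Atp6 at 1.55 ± 0.76, mt-Co2 at 1.35 ± 0.73, mt-Co3 at 0.71 ± 0.62 and mt-Atp8 at 0.69 ± 0.63. Mouse 2 was the highest of its group for these 4, as it was for all 13 genes. When 1 mouse at a time was left out, the lowest values of the 4 were -0.202, -0.29, -0.653 and -0.562 in that order, so their sign turned. mt-Co2 was at 2.20, 18.4, 0.591 and 2.96 CPM in STAM-I-BET151 mice and 2.16 to 2.53 CPM in STAM-vehicle mice. Summed with the copies, mt-Atp6, mt-Co2 and mt-Co3 were at -0.11 ± 0.40, -0.06 ± 0.40 and -0.20 ± 0.32, so their direction turned. mt-Nd6 lies on the other strand of the mitochondrial genome, mt-Atp8 overlaps mt-Atp6 and mt-Nd4l overlaps mt-Nd4, so their counts depend on how the authors used strand and overlaps, which is not given in the sources used here.

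**Figure D5:**
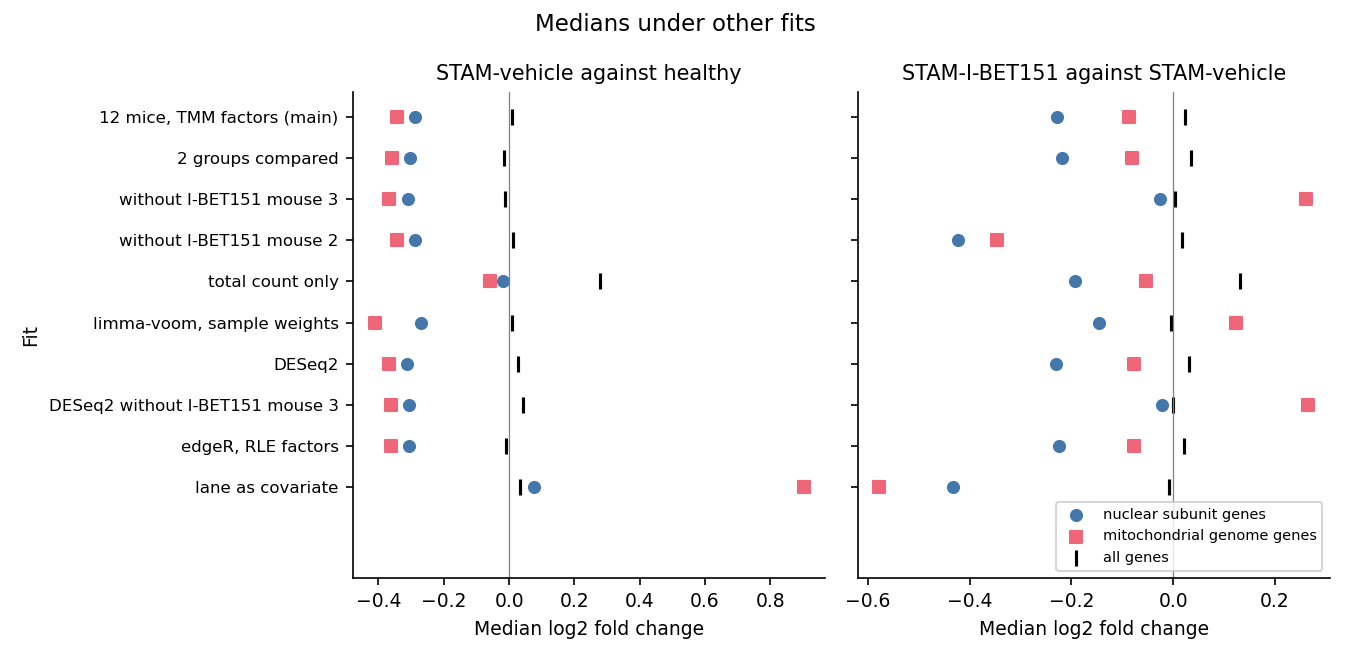
Median log2 fold change (horizontal axes) of the 79 nuclear genes, the 13 mitochondrial genes and all genes under each of 10 fits (rows), for STAM-vehicle against healthy (left) and STAM-I-BET151 against STAM-vehicle mice (right). On the left the nuclear median stays below that of all genes except with lane as a covariate, and on the right it nears 0 where mouse 3 is left out.

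Some nuclear members share sequence with other annotated genes. Of the 84, 54 share no 101-base window with another annotated gene, 11 share over 10% and none over 50%. The highest share was that of Atp5g2, 34.7%, with Gm10175, which held up to 1343 counts in a mouse against up to 3034 on Atp5g2. Ndufb4 shares windows with its relative Ndufb4c, which held at most 171 counts. Ndufa13 (23.9%) and Atp5o (27.6%) overlap other genes on the opposite strand, Atp5o over 35.6% of its exon bases. The gene that shares most windows with each, Tssk6 and Gm15976, held at most 15 counts and 1 count. Without a stated strand setting, reads of such overlapping genes cannot be told apart.

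Promoters were compared as a feature of sequence that the symbol rule did not use. RefSeq promoters of GRCm38.p6, 250 bases before to 50 after the start, matched 66 of the 84 nuclear genes. The letters of an NRF1 site (GCGCA, any base, GCGC), searched like the others on both strands, occurred in 17 of the 66 (25.8%), against 5.19% of all 27025 genes with a promoter. The ETS letters CCGGAAG, bound by GABP, occurred in 24.2% against 9.93%, the ERR letters AAGGTCA in 12.1% against 5.38% and the YY1 letters AAGATGGC in 13.6% against 3.19%. The 4 patterns were counted separately, and a promoter could hold several. The member promoters had a median GC content of 57.3% and all promoters one of 52.7%. Sdhd, shown above, held NRF1, ETS and ERR letters and Ndufs7 the YY1 letters, whereas Cox7a1 held none of the 4. These matches are descriptions of sequence and were not tied to the fold changes. The 27025 genes were not limited to those with enough counts to test in these livers. The part of expression or GC content in the shares was not tested.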

How the data were processed

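Poly(A)-selected, strand-specific RNA libraries from the livers of 12 mice, 4 per group, were read as 101-base pairs. Per the methods, the authors aligned them with STAR 2.5.1b to mm10, kept uniquely mapped reads and counted them per gene with HTSeq. The deposited values are raw read counts, 1 file per mouse. The names of the deposited files refer to trimmed reads and to featureCounts, which the methods do not mention. Which tool made the deposited counts is therefore unclear. The strand setting of the counting is not given in the sources used here. The authors left out 1 STAM-I-BET151 sample that the sources used here do not name, so all 12 were used and values without STAM-I-BET151 mouse 3 are given beside them. Keeping only uniquely mapped reads can lower the counts of genes with near-identical copies. Yet the chromosome 1 copies of mt-Atp6, mt-Co2 and mt-Co3 held at least 116362 counts in each mouse. How reads were assigned between such genes and their copies was not tested.

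Counts were fitted with edgeR 4.0.16 (R 4.3.3), with TMM factors, filterByExpr at a minimum count of 10 and the quasi-likelihood test on all 12 mice. Calls were made at an adjusted p of 0.05 for STAM-vehicle against healthy and 0.1 for STAM-I-BET151 against STAM-vehicle. Standard errors were the fold change divided by the square root of F. DESeq2 1.42.0 and limma 3.58.1 served as alternatives, and the steps were tested on simulated data. The labels do not say more of the replicates than that they are separate mice. Replicate libraries differed by far more than counting noise (chi-square per degree of freedom of 30.5 to 620). Identifiers were matched to GENCODE M21 for 47224 of 47729 genes. Promoters and their motif matches came from RefSeq (GRCm38.p6). Sequencing lanes were read from the names of the deposited files, and a fit with lane as a term rests only on lanes that hold more than 1 group.

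The members, the gene lists and the alternatives were chosen with earlier results of these data known. Genes were named by this rule: all mitochondrial genes, called nuclear members, per complex the members with the largest and smallest fold change in each comparison, 10 core subunits, and isoforms of other tissues with their counterparts. Further genes that are named (Ndufb5, Atp5e, Ndufb2, Ndufb4, Ndufb8, Atp5g2, Atp5g3 and the separated genes of complex IV) were chosen after their values were seen.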

Additional observations from a re-analysis of the deposited data

Results flagged for a closer look

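In 11 of 114 groups of 4 mice, 1 mouse lay farther from the others than the 95% limit of Dixon's test allows. Chance gives about 1 group in 20 where groups are independent. These groups are different genes in the same mice and are not independent, so the count cannot be set against that rate. In STAM-I-BET151 mouse 2, mt-Atp6 was at 22.7 CPM (0.771 to 3.58 in the other mice of its group), mt-Co2 at 18.4 CPM (0.591 to 2.96), mt-Co3 at 12.8 CPM (0.735 to 2.53) and mt-Atp8 at 2.20 CPM (0.179 to 0.459). In STAM-I-BET151 mouse 3, mt-Nd1 was at 2210 CPM (7700 to 8360 in the others) and mt-Nd2 at 2300 CPM (10100 to 11300). Healthy mouse 4 had mt-Co3 at 5.37 CPM (2.65 to 2.91). Healthy mouse 2 had Ndufs7 at 59.8 CPM (70.3 to 71.5), Cox6b2 at 0.980 CPM (1.47 to 1.54) and Ndufv1 at 137 CPM (165 to 168). STAM-vehicle mouse 4 had Uqcr11 at 70.1 CPM (62.2 to 63.0).

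Counts were also found on genes outside the symbol rule, the chromosome 1 copies of mitochondrial genes. Summed over the 12 mice they were 5763442 on Gm10925 (copy of mt-Atp6), 4680270 on Gm29216 (mt-Co1), 4151501 on Gm28437 (mt-Co3), 4113791 on Gm28661 (mt-Co2), 37890 on Gm28438 (mt-Nd3), 1637 on Gm28439 (mt-Nd4) and 415 on Gm10222 (mt-Nd4l), above the limit of 3 counts.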

How the results depend on the processing

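Calls and medians were recomputed under 24 other settings. Of the log2 fold changes of single genes, 1515 kept direction and side of the threshold, 45 passed it and 94 changed sign. For STAM-vehicle against healthy, 1189 genes were called with all 12 mice, 3879 with the 2 groups alone, 742 with the replicate block, 37 with lane, 5672 with limma-voom, 1892 with DESeq2, 4378 with DESeq2 on 11 mice and 546 to 3779 without 1 mouse, 3779 being without STAM-I-BET151 mouse 3. Nuclear calls were 0 with all mice, 50 with the 2 groups alone, 42 with limma-voom, 39 with DESeq2 on 11 mice and 0 to 32 without 1 mouse (1 without STAM-I-BET151 mouse 2), and 1 mitochondrial gene was called with limma-voom and with DESeq2 on 11 mice. The nuclear median was -0.0197 with total counts alone and 0.0762 with lane, where the mitochondrial median was 0.902. For STAM-I-BET151 against STAM-vehicle, 59 genes were called with all mice, 6 with total counts alone, 101 without a filter, 8 with the 2 groups alone, 10 with the replicate block, 0 with lane, 1205 with limma-voom, 268 with DESeq2, 1288 with DESeq2 on 11 mice and 13 to 403 without 1 mouse (103 without STAM-I-BET151 mouse 2 and 403 without mouse 3), and 3 nuclear genes were called with limma-voom. The median share of mitochondrial counts was 10.2%, 9.38% and 9.49% with the copies in the 3 groups (healthy first, STAM-I-BET151 last), and 6.15% in STAM-vehicle mice over protein-coding counts. Same-numbered mice did not deviate together (correlations -0.154 to -0.000872 and -0.228 to 0.0933), so the replicate block has no basis in the design, and it gave 0 nuclear and 0 mitochondrial calls. DESeq2 on 11 mice and the sums with copies were chosen after seeing the data. Fewer mice enter the fits of 2 groups and of 11 mice, and the cause of these changes was not tested in any setting. Low counts limit mt-Co2, mt-Co3, mt-Atp6, mt-Atp8, Cox7a1, Cox6b2 and Ndufa4l2.

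For STAM-vehicle against healthy, with RLE factors, the sign turned for mt-Nd3 (-0.00116). For STAM-vehicle against healthy, with total counts alone, the sign turned for mt-Atp8 (0.0325), mt-Nd1 (0.141), mt-Nd2 (0.0904), mt-Nd5 (0.0814), mt-Nd6 (0.065), Sdhb (0.118), Uqcrc1 (0.0835), Atp5b (0.0733), Ndufa13 (0.227), Sdha (0.00481), Cox4i1 (0.00421), Cox5a (0.0302), Cox7a2l (0.0266), Ndufv1 (0.0827). For STAM-vehicle against healthy, with lane as a covariate, the sign turned for mt-Atp6 (1.44), mt-Atp8 (1.47), mt-Co1 (0.424), mt-Co2 (1.47), mt-Co3 (0.902), mt-Cytb (0.465), mt-Nd1 (0.743), mt-Nd2 (0.906), mt-Nd4 (0.729), mt-Nd4l (0.712), mt-Nd5 (1.31), mt-Nd6 (1.19), Ndufa4l2 (-0.122), Sdhb (0.15), Uqcrc1 (0.137), Atp5b (0.208), Ndufa13 (0.433), Sdha (0.259), Uqcr11 (0.049), Atp5a1 (0.0704), Cox4i1 (0.124), Cox5a (0.272), Ndufv1 (0.0751), Uqcrfs1 (0.141). For STAM-vehicle against healthy, with DESeq2, the sign turned for mt-Nd3 (-0.00646). For STAM-vehicle against healthy, with DESeq2 on 11 mice, the sign turned for mt-Nd3 (-0.00142). For STAM-I-BET151 against STAM-vehicle, with lane as a covariate, the sign turned for mt-Atp6 (-0.314), mt-Atp8 (-0.59), mt-Co2 (-0.411), mt-Co3 (-0.578), mt-Nd2 (-0.387). For STAM-I-BET151 against STAM-vehicle, with limma-voom sample weights, the sign turned for mt-Cytb (0.0123), mt-Nd1 (0.209), mt-Nd4 (0.116), mt-Nd4l (0.124), mt-Nd5 (0.133), mt-Nd6 (0.147). For STAM-I-BET151 against STAM-vehicle, with DESeq2 on 11 mice, the sign turned for mt-Co1 (0.11), mt-Cytb (0.135), mt-Nd1 (0.275), mt-Nd4 (0.224), mt-Nd4l (0.212), mt-Nd5 (0.238), mt-Nd6 (0.266), Ndufs7 (0.0471), Sdha (0.03), Uqcr11 (0.126), Cox4i1 (0.0156), Cox7a2l (0.0771), Uqcrfs1 (0.0071). For STAM-I-BET151 against STAM-vehicle, summed with the chromosome 1 copies, the sign turned for mt-Atp6 (-0.108), mt-Co2 (-0.0599), mt-Co3 (-0.204). Leaving out 1 mouse at a time turned the sign of these log2 fold changes for STAM-vehicle against healthy, given with their range: mt-Nd3 (-0.0674 to 0.121), mt-Nd5 (-0.472 to 0.0298), mt-Atp8 (-0.483 to 0.0564). Leaving out 1 mouse at a time turned the sign of these log2 fold changes for STAM-I-BET151 against STAM-vehicle, given with their range: mt-Nd1 (-0.157 to 0.271), mt-Nd2 (-0.0709 to 0.414), mt-Atp6 (-0.202 to 1.93), mt-Atp8 (-0.562 to 1.03), mt-Co2 (-0.29 to 1.74), mt-Co3 (-0.653 to 1.07), mt-Co1 (-0.376 to 0.106), mt-Cytb (-0.411 to 0.13), mt-Nd4 (-0.389 to 0.219), mt-Nd4l (-0.354 to 0.207), mt-Nd5 (-0.346 to 0.234), mt-Nd6 (-0.313 to 0.261), Ndufs7 (-0.304 to 0.0417), Sdha (-0.457 to 0.0254), Uqcr11 (-0.424 to 0.12), Cox4i1 (-0.407 to 0.0112), Cox7a2l (-0.235 to 0.0733), Uqcrfs1 (-0.482 to 0.00261).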
